A study of Gallus gallus with 6 samples.

Results

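Guidance genes encode secreted and membrane-bound cues, and their receptors, that attract or repel moving cells and growing axons. The set described here holds every probe set of the array's annotation whose only gene symbol starts with SEMA, PLXN, EPHA, EPHB, EFNA, EFNB, SLIT, ROBO, NTN or UNC5, or is NRP1 or NRP2, with 1 probe set per gene, the one with the highest mean signal. These were 62 genes on 159 probe sets, out of 13009 genes with a symbol of their own and 38535 probe sets in all. The rule works by letters, so it also took in 4 SLITRK genes, which encode leucine-rich membrane proteins of the synapse and not slit ligands, and UNC50, which is not a netrin receptor. The other 57 genes are semaphorins, plexins, neuropilins, ephrins, Eph receptors, slits, ROBO receptors, netrins, netrin-G proteins and UNC5 receptors. DCC was named in the rule and is not analysed here.

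The RNA came from whole ovaries of 6 hens (Gallus gallus), each hybridised to its own Affymetrix chicken array. 3 hens (replicates 4, LB14 and LB11) had ovarian tumours, which per the design text were either restricted to the ovary or had also seeded the abdomen, and the stage of each hen is not known here. The other 3 hens (replicates 36, LB3 and LB22) had ovaries without gross or microscopic signs of cancer. Per the design text the groups were matched in age and laying status, and their age, strain and any treatment are not known here. Each array is 1 hen and the labels name no shared flock or batch. The question is which transcripts differ between the 2 groups, and 3 arrays in each limit the precision of every value.

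Semaphorins signal through plexins. The secreted class 3 semaphorins mostly bind a neuropilin, which pairs with a plexin, while membrane-bound semaphorins bind plexins directly. Ephrins are anchored ligands of the Eph receptor tyrosine kinases and signal between touching cells: A-type ephrins are held by a lipid anchor and B-type ephrins span the membrane. Slits bind ROBO receptors, and netrins bind DCC and the UNC5 receptors. Outside the nervous system these systems are known for shaping blood vessels and keeping epithelial cells sorted, and in mammals slits and ROBO receptors are made in the ovary by surface and luteal cells.

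Values are linear signal intensities that the authors had scaled to a trimmed mean near 500.1 on every array. A background limit for each array, from controls whose target was taken to be absent from the RNA, lay between 25.5 (tumour of hen 4) and 44.6 (tumour of hen LB11). RNA quality, as the log2 ratio of 3′ to 5′ signal of the actin and GAPDH controls, averaged 0.14 ± 0.07 in cancer and 0.11 ± 0.11 in normal ovaries (SD over 3 hens; two-sided exact permutation p = 0.8, where 3 against 3 cannot go below 0.1). Normal ovaries carried the defining transcripts of the follicle: the 12 granulosa and theca markers summed to between 49904 and 67144 signal units there, against 17100 to 34373 in ovaries with tumours, and 11 of the 12 were lower without overlap between the groups. Epithelial markers moved the other way, with sums of 29647 to 67759 in cancer and 20340 to 23640 in normal ovaries. Of these markers, 5 of 10 were higher without overlap, and CLDN3 exceeded the background limit in no normal ovary. KRT24, matched to the listed KRT19, had a lower mean in cancer, 3056 against 3839, with overlapping groups. Of all genes, 7.73% were higher and 8.4% lower without overlap. 3 epithelial markers and 0 follicle markers were past the threshold of an adjusted p under 0.05 in limma, a moderated linear model fitted to all probe sets. In a whole ovary, fewer cells of a type and less RNA per cell cannot be told apart. The part of these shifts in the values below was not tested.

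**Figure D1:**
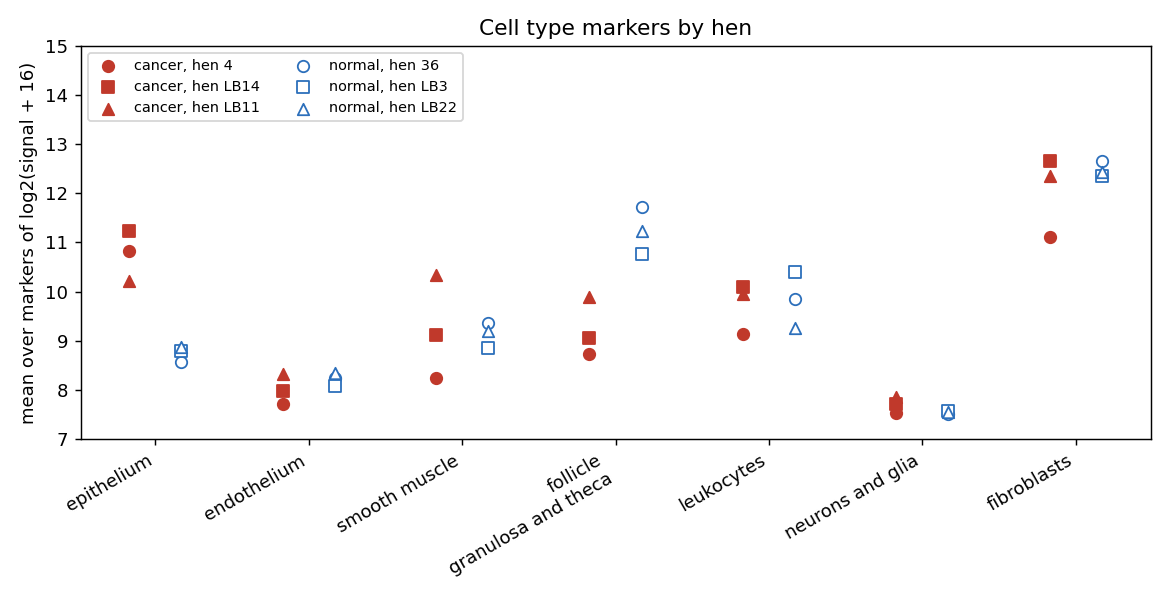
Mean over the markers of each cell type of log2(signal + 16), by hen, with filled red symbols for ovaries with tumours and open blue symbols for normal ovaries. Epithelial markers lie higher in all 3 tumours and follicle markers lie lower, while leukocyte and neural markers overlap; the tumour of hen 4 lies lowest for fibroblast markers, at 11.1 against 12.7 and 12.3 in the other tumours.

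Across the guidance genes, 1 gene fell in cancer and none rose past the threshold. PLXNC1, a plexin, was that gene. Counted by probe set, 1 of the 92 tested probe sets of guidance genes was lower and 0 were higher. Of all 23063 tested probe sets, 0.0434% were lower and 0.234% higher at the same threshold. Of the 62 genes, 50 passed the filter on dim probe sets and were tested; 3 of these (NTNG2, EPHA4 and EPHA10) passed only because of their tumour signals. At an unadjusted p under 0.05, 4 were higher (NTNG2, EPHB2, EPHA1 and SLIT2) and 4 lower (PLXNC1, SEMA3A, PLXNA1 and EFNB1), which is 8% in each direction, where 5.59% of all tested genes were higher and 5.78% lower. Counted without the filter, 5 of the 62 genes were higher without overlap between the groups and 7 were lower, or 8.06% and 11.3%, beside 7.73% and 8.4% of all genes. With all 6 hens these shares lie near those of the whole array. Without the tumour of hen LB11 the shares were 12.9% higher and 24.2% lower among guidance genes, beside 13.0% and 14.5% of all genes, and without that of hen LB14 they were 9.68% and 16.1%, beside 15.5% and 14.8%. In the 4 hens with the prefix LB alone, 22.6% of guidance genes were higher and 17.7% lower without overlap, beside 19.5% and 18.7% of all genes. The median log2 difference was −0.05 over the 62 genes, with a range of −1.27 to 1.49, and −0.004 over all genes.

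**Figure D2:**
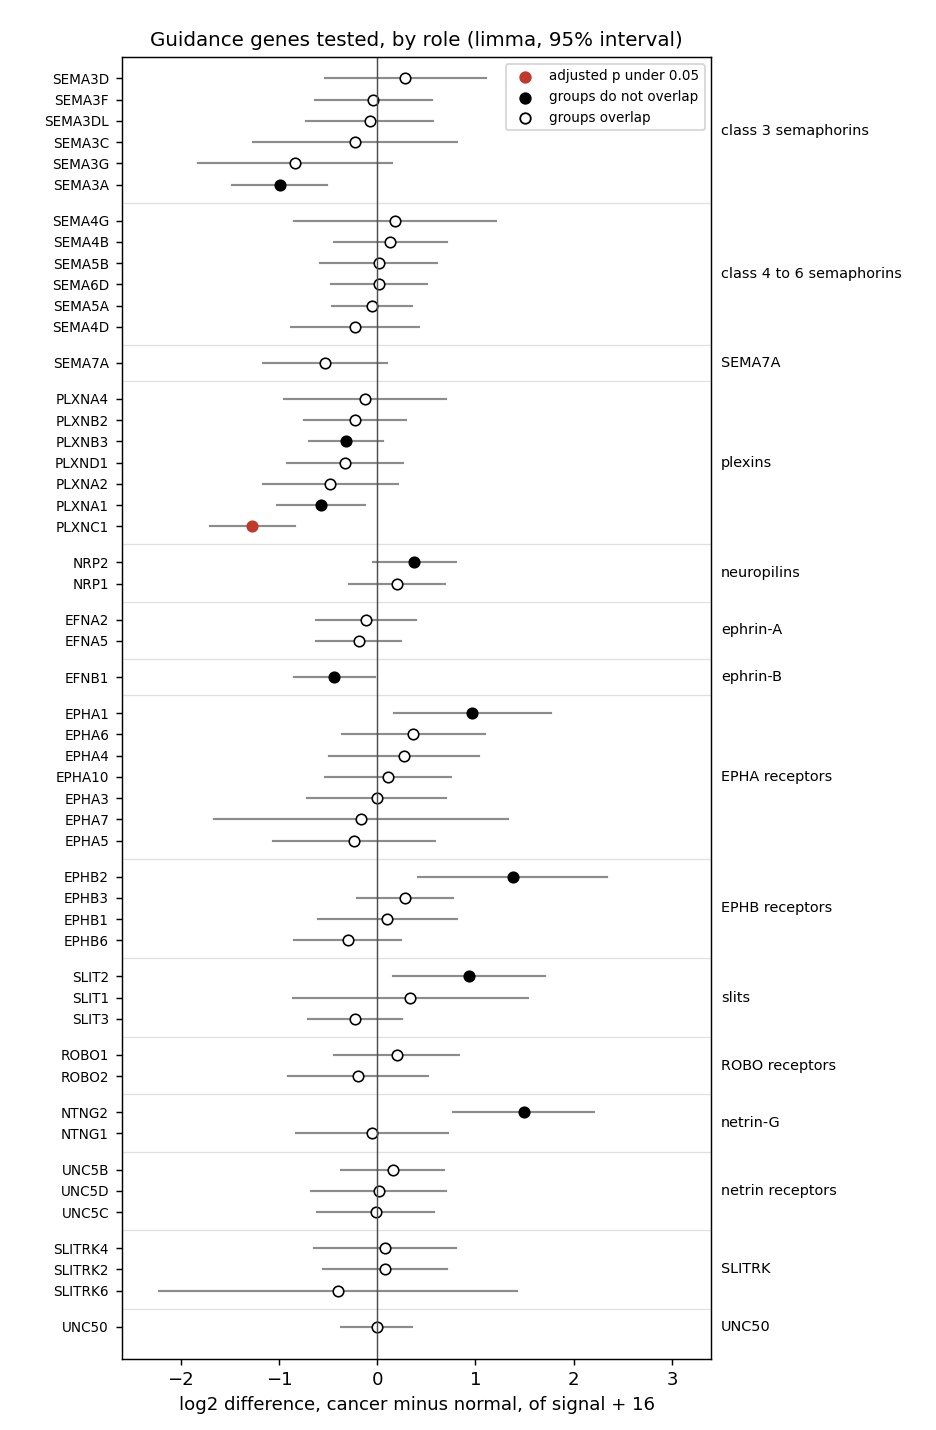
Log2 difference (cancer minus normal, of signal + 16) of the 50 tested guidance genes with 95% intervals from limma, arranged by role. PLXNC1, in red, is past the threshold at −1.27; filled black points are genes whose 3 tumours and 3 normal ovaries do not overlap, from SEMA3A at −0.99 to NTNG2 at 1.49, and open points overlap.

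The one gene that fell is a semaphorin receptor. PLXNC1 encodes plexin C1, which in mammals binds the lipid-anchored semaphorin SEMA7A. Its signal was 1190, 999 and 854 in the tumours of hens 4, LB14 and LB11, against 2490, 2624 and 2239 in the normal ovaries of hens 36, LB3 and LB22. The highest tumour therefore lay well below the lowest normal ovary. The log2 difference was −1.27 (SE 0.19, limma adjusted p = 0.0386, 3 hens a group), or 2.41-fold lower on the shifted scale. A further tested probe set of PLXNC1 was lower in each tumour as well, at 114, 56 and 86.7 in cancer and 159, 226 and 255 in normal ovaries, and was not past the threshold (difference −1.19, SE 0.31, limma adjusted p = 0.233). The call was lost in 9 of 18 alternatives. Over all 18, the difference stayed between −1.39 and −1.15 and the limma adjusted p ran from 0.0177 to 0.256. Leaving out any of the normal hens 36, LB3 and LB22 or the tumour of hen LB14 ended the call (limma adjusted p from 0.0671 to 0.256). Of the 12 granulosa and theca markers, given above, 11 were lower in the same 3 tumours without overlap, where 8.4% of all genes were. Their part in the PLXNC1 difference was not tested.

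SEMA7A had signals of 902, 676 and 1417 in cancer and 1479, 1564 and 1152 in normal ovaries. The groups overlapped through the tumour of hen LB11, which exceeded normal hen LB22, and the difference of −0.53 (SE 0.28) was not past the threshold (limma adjusted p = 0.585). Both other tested probe sets of SEMA7A had negative differences too, at −0.57 and −0.37.

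The other 6 plexins also had negative differences, so that all 7 lay below 0 with a median of −0.33, and only PLXNC1 passed the test. By comparison, 49.5% of all genes had a positive difference. PLXNA1, a partner of neuropilins, had 1033, 740 and 955 in cancer and 1305, 1274 and 1481 in normal ovaries (difference −0.58, SE 0.20, limma adjusted p = 0.361). Its groups did not overlap, but its other tested probe sets disagreed, at −0.27 and 0.16. PLXNB3, which the RefSeq gene table also lists as PLXNB1, had 1948, 1661 and 2060 in cancer and 2341, 2240 and 2469 in normal ovaries, again without overlap (difference −0.32, SE 0.17, limma adjusted p = 0.589). PLXND1, a receptor known from blood vessels, overlapped (difference −0.33, SE 0.26). Its tumours of hens 4 and LB14 had 1363 and 1697, below the normal values of 2347, 2285 and 2456. The tumour of hen LB11 had 2860, above them. The remaining PLXNA2, PLXNB2 and PLXNA4 had differences of −0.48, −0.23 and −0.12. PLXNA4 turned positive with array weights (0.06), without the tumour of hen LB14 (0.08) and without normal hen LB3 (0.06); under the alternative scalings of the arrays all 7 stayed negative.

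Among the secreted class 3 semaphorins, which repel axons and act on vessels, 7 of 8 had a negative difference and none was past the threshold. The share of all genes with a positive difference was 49.5%. Of the 6 tested, 5 were negative, and 3 were in the hens with the prefix LB alone. Leaving out the tumour of hen 4 or any 1 of the 3 normal hens left 4 of the 6 negative. SEMA3A, the ligand of NRP1, had 293, 277 and 365 in cancer and 713, 603 and 585 in normal ovaries. Each tumour was below each normal ovary, and the group means were 312 ± 46.5 in cancer and 634 ± 69.1 in normal ovaries (SD, n = 3 each). The difference was −0.99 (SE 0.21, limma adjusted p = 0.148), with a 95% interval of −1.47 to −0.51, and it was not past the threshold in any of 18 alternatives (−1.10 to −0.87, limma adjusted p from 0.0986 to 0.615). SEMA3E, which binds PLXND1 without a neuropilin, was dim and not tested. It had 28.1, 44.4 and 28.2 in cancer and 49.3, 45.8 and 52.8 in normal ovaries, also without overlap. Its signal in the tumour of hen LB11 was below that array's background limit of 44.6. Those in the tumours of hens 4 and LB14 were close to their limits of 25.5 and 44.0. SEMA3D had a positive difference of 0.29 (SE 0.36), which turned negative in the hens with the prefix LB alone (−0.17). Its other tested probe set gave −0.05. In the RefSeq table SEMA3D, SEMA3A and SEMA3E follow each other on chromosome 1 with no other protein-coding gene between them. SEMA3G had 23.2, 115 and 82.4 in cancer and 126, 115 and 139 in normal ovaries, with the tumour of hen 4 far below the rest (difference −0.84, SE 0.44, limma adjusted p = 0.585). That tumour's signal was below its array's background limit. The other tested probe sets of SEMA3G had differences of 0.24 and −0.04. The first of these had 103, 129 and 94.1 in cancer and 108, 93.6 and 68.6 in normal ovaries. SEMA3B was not tested, and SEMA3C, SEMA3DL and SEMA3F had differences between −0.23 and −0.04.

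Both neuropilins, the co-receptors of class 3 semaphorins, had positive differences. NRP2 had 1501, 1376 and 1337 in cancer and 1170, 1174 and 910 in normal ovaries, without overlap (difference 0.38, SE 0.19, limma adjusted p = 0.559); its other tested probe sets had differences of 0.64 and 0.18. NRP1 had 827, 1212 and 1104 in cancer and 927, 999 and 773 in normal ovaries, which overlapped (difference 0.21, SE 0.22, limma adjusted p = 0.823). A second NRP1 probe set gave −0.17.

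No transmembrane semaphorin of classes 4 to 6 was past the threshold. Of 8 genes, 6 were tested, and their differences ran from −0.22 (SEMA4D, known from lymphocytes) to 0.18 (SEMA4G), all with overlapping groups. The 95% intervals were wide for both, at −0.88 to 0.43 for SEMA4D and −0.85 to 1.21 for SEMA4G. SEMA5A, whose product carries thrombospondin repeats, had 2260, 2141 and 1854 in cancer and 1857, 2213 and 2440 in normal ovaries (difference −0.05, SE 0.18, 95% interval −0.46 to 0.36). SEMA4G was low in 1 tumour only on its brightest probe set. It had 60.9 in hen 4 and 236 and 227 in hens LB14 and LB11, against 147, 153 and 102 in normal ovaries. Its other tested probe set had 103, 140 and 113 in cancer and 103, 105 and 69.4 in normal ovaries (difference 0.32). SEMA6A and SEMA6B were at or below the background limit on all 6 arrays.

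Among Eph receptors, 1 of 8 genes of the A type and 1 of 4 of the B type had all tumours above all normal ovaries. Of all genes, 7.73% did. EPHB2, a receptor for B-type ephrins that in mammals marks the crypts of the intestine, had 220, 784 and 270 in cancer and 120, 131 and 138 in normal ovaries. The tumour of hen LB14 stood above the other 2 tumours, and the means were 425 ± 312 in cancer and 130 ± 9.45 in normal ovaries (SD, n = 3 each). The difference of 1.38 (SE 0.42) was not past the threshold (limma adjusted p = 0.299), and it was 0.84 without hen LB14. On the other tested probe sets of EPHB2 the groups overlapped, with 95, 297 and 89.7 in cancer against 117, 98.5 and 125 in normal ovaries on the brighter, and differences of 0.26 and 0.62. EPHA1, a receptor of epithelia in mammals, had 206, 517 and 223 in cancer and 124, 162 and 136 in normal ovaries (difference 0.97, SE 0.35, limma adjusted p = 0.391). Hen LB14 again held the highest value, and the difference was 0.56 without it.

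Both B-type ephrins measured here lay on the other side. EFNB1 had 1073, 1153 and 1256 in cancer and 1761, 1384 and 1596 in normal ovaries, with every tumour below every normal ovary (difference −0.44, SE 0.18, limma adjusted p = 0.458). Its other tested probe sets had differences of −0.42 and −0.38, and on both of them the groups overlapped. EFNB2, known from arteries, was dim and not tested: it had 43.2, 35.7 and 38.1 in cancer and 57.7, 69.6 and 95.6 in normal ovaries, and only 1 tumour exceeded its array's background limit. EPHB2 and these ligands had differences of opposite sign; neither EPHB2 nor EFNB1 was past the threshold.

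The other members of both families overlapped between groups. EPHB3 and EPHB1 had differences of 0.28 (SE 0.22) and 0.10 (SE 0.31), and EPHB6, whose kinase domain is inactive, of −0.30 (SE 0.24). The lipid-anchored ligands EFNA2 and EFNA5 had differences of −0.11 (SE 0.23) and −0.19 (SE 0.19), although EFNA2 turned slightly positive without the tumour of hen 4 (0.01). The other tested probe set of EFNA5 gave 0.17. Of the 8 A-type receptors, 7 were tested and 5 of the 8 had a positive difference, as did 49.5% of all genes. EPHA7 showed how far single tumours spread: 28.3, 313 and 199 in cancer and 182, 186 and 94.1 in normal ovaries (difference −0.16, SE 0.66).

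**Figure D3:**
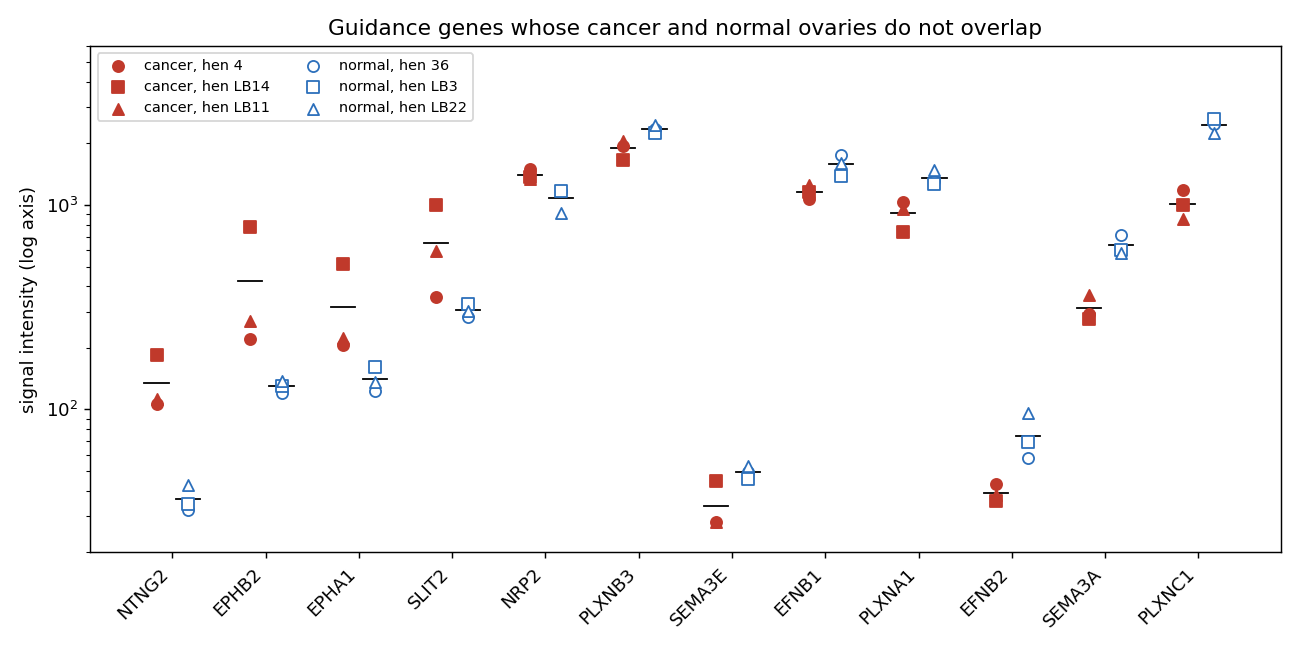
Signal intensity on a log axis of the 12 guidance genes whose groups do not overlap, by hen, with ovaries with tumours to the left of normal ovaries for each gene and a black bar at each group mean. In NTNG2, EPHB2, EPHA1 and SLIT2 the tumour of hen LB14 lies highest of the 6 arrays, while for PLXNC1 the 3 tumours, at 854 to 1190, lie below the 3 normal ovaries, at 2239 to 2624.

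SLIT2, a secreted ligand of ROBO1 and ROBO2, had 355, 998 and 594 in cancer and 284, 329 and 303 in normal ovaries. All 3 tumours exceeded all normal ovaries, hen 4 only slightly. The means were 649 ± 325 in cancer and 305 ± 22.6 in normal ovaries (SD, n = 3 each), and the difference of 0.93 (SE 0.34) was not past the threshold (limma adjusted p = 0.393). It was 0.57 without the tumour of hen LB14 and 1.30 without that of hen 4. SLIT3 had 778, 669 and 956 in cancer and 963, 1030 and 806 in normal ovaries (difference −0.22, SE 0.21), and SLIT1 had a difference of 0.34 (SE 0.53).

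The slit receptors showed no separation. ROBO1 had 157, 270 and 149 in cancer and 154, 169 and 155 in normal ovaries, so that only the tumour of hen LB14 stood out (difference 0.20, SE 0.28). ROBO2 had a difference of −0.19 (SE 0.31). ROBO4, the endothelial member and also an entry of the endothelial marker list, exceeded the background limit in 0 of 3 tumours and in 1 of 3 normal ovaries. Endothelial markers summed to between 4889 and 7218 in cancer and between 6896 and 7720 in normal ovaries. Without overlap, 3 of 12 were lower and 1 higher, beside 8.4% and 7.73% of all genes.

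The netrins themselves were dim. NTN1, NTN3, NTN4 and NTN4L all had a mean signal below the filter limit of 66.9 and were not tested. NTN1 exceeded the background limit in 3 tumours and 2 normal ovaries, NTN4 in 2 and 3, NTN3 in 2 and 1, and NTN4L in 0 and 1. NTN1, whose product attracts axons through DCC, had 26.5, 71.8 and 87.6 in cancer and 89.2, 35.9 and 56.2 in normal ovaries. The receptors UNC5B and UNC5C were well above background. UNC5B, which in mammals acts in vessels, had 1697, 1412 and 2118 in cancer and 1486, 1960 and 1250 in normal ovaries (difference 0.16, SE 0.23, 95% interval −0.37 to 0.68). UNC5C had 2112, 1227 and 2451 in cancer and 1962, 2044 and 1639 in normal ovaries (difference −0.02, SE 0.26), with the tumour of hen LB14 lowest of all. UNC5D had a difference of 0.01 (SE 0.30).

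NTNG2 encodes netrin-G2, a lipid-anchored relative of the netrins that binds partners at synapses and not DCC. It had 106, 185 and 113 in cancer and 32, 34.6 and 42.7 in normal ovaries, without overlap. The difference of 1.49 (SE 0.31) was not past the threshold (limma adjusted p = 0.145). Only 1 of the 3 normal ovaries exceeded its background limit, and the gene passed the filter through its tumour signals, which favoured a positive sign. Both other probe sets of NTNG2 were too dim to be tested and had negative differences (−0.71 and −0.25). NTNG1 had 120, 185 and 190 in cancer and 168, 260 and 108 in normal ovaries (difference −0.05, SE 0.34). A second NTNG1 probe set gave 0.39.

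Of the genes that the letters alone brought in, SLITRK4 had 1827, 1939 and 3868 in cancer and 1810.5, 3141 and 2036 in normal ovaries (difference 0.08, SE 0.32). SLITRK6 ranged from 1.71 in the tumour of hen 4 to 97 and 222 in hens LB14 and LB11, against 87.1, 114 and 65.2 in normal ovaries (difference −0.40, SE 0.80, turning to 0.67 without hen 4). UNC50, a membrane protein tied in worms to the transport of acetylcholine receptors, had 3790, 4689 and 4906 in cancer and 4546, 4574 and 4216 in normal ovaries (difference −0.003, SE 0.16). Markers of neurons and glia summed to between 4790 and 8652 in cancer and between 5658 and 6457 in normal ovaries. Of these markers, 0 of 10 were free of overlap, where 7.73% of all genes were higher and 8.4% lower without overlap. GAP43 was at or below background on all arrays.

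Many guidance genes were read by more than 1 probe set, which gives a second reading of the same RNA and no added hens. 27 of the 50 tested genes had 42 further tested probe sets, of which 30 had the sign of the brightest probe set, and in 16 of the 27 genes all had it. PLXNC1, EFNB1, SEMA7A, NRP2 and EPHB2 kept their sign on every tested probe set, and PLXNA1 and NRP1 did not. On the brighter of the other tested probe sets of EPHB2, the tumours of hens 4 and LB11 lay below every normal ovary. SEMA3A, SLIT2 and EPHA1 had a single probe set each, so their values have no such check.

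**Figure D4:**
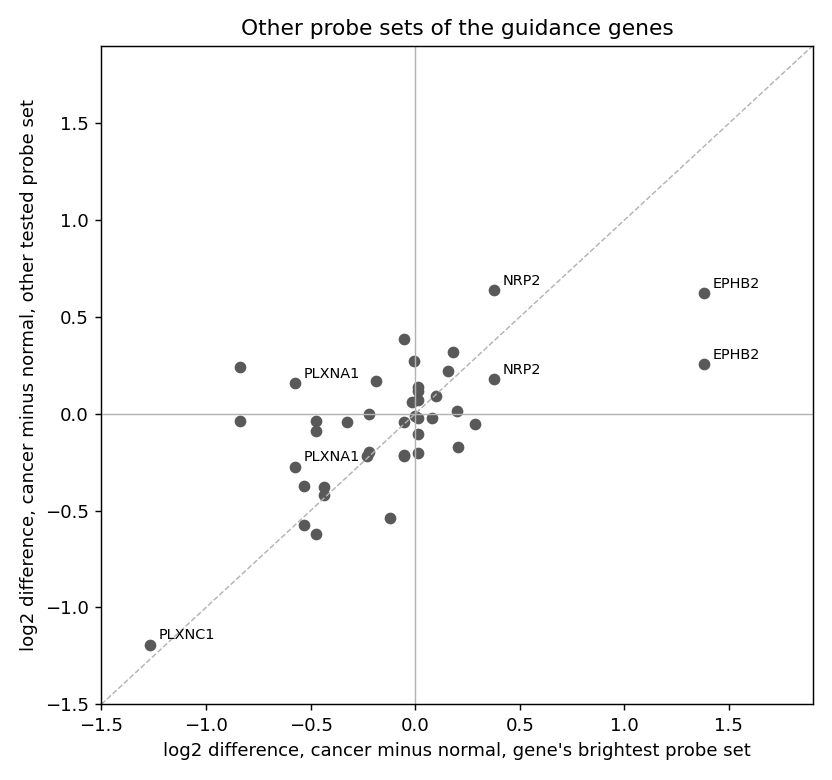
Log2 difference (cancer minus normal, of signal + 16) on each of the 42 other tested probe sets, against that on the brightest probe set of the same gene; the dashed line marks equal values. PLXNC1 lies close to the line at −1.27 and −1.19, whereas both points of EPHB2 lie far below it, at 0.26 and 0.62 against 1.38.

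The guidance genes spread more among tumours than among normal ovaries, as did genes at large. The median SD of a tested guidance gene on the log2 scale was 0.36 among tumours and 0.18 among normal ovaries, beside 0.32 and 0.19 for all tested genes. The tumour of hen 4 was the lowest of the 3 for 26 of the 50 tested guidance genes (52%, where it was lowest for 33.2% of all tested genes) and the highest for 7 (14%, against 31.1%). Relative to the normal mean, the median guidance gene was −0.25 in the tumour of hen 4, 0.07 in that of hen LB14 and 0.13 in that of hen LB11, while the median of all tested genes was −0.03, −0.04 and 0.03 in the same tumours. SEMA3G, SEMA4G, EPHA7 and SLITRK6, given above, are examples of low values in hen 4 on the brightest probe set. Other tested probe sets did not all show this: hen 4 had 103 and 35.7 for SEMA3G and 103 for SEMA4G. The array of that tumour also had the lowest background limit, 25.5 against 38.6 to 44.6 on the other arrays. Its SEMA3G and SLITRK6 signals on the brightest probe sets were below that limit. Guidance genes were dimmer than genes at large, with a median mean signal of 218 against 470. The part of the lower limit in these low values was not tested. The same tumour had the lowest fibroblast sum, 30521 against 94275 and 90213 in hens LB14 and LB11 and 76524 to 106894 in normal ovaries. Its leukocyte sum was also the lowest of the 6 arrays, at 14673, against 32512 and 36892 in hens LB14 and LB11 and 23338 to 34592 in normal ovaries. As the mean log2 over markers, it was also the lowest of the 3 tumours for endothelium (7.72), smooth muscle (8.25), follicle (8.73) and neurons and glia (7.52). By sums, the tumour of hen LB14 was lower than that of hen 4 for endothelium, follicle and neurons and glia. The part of any of these lists in the low guidance genes was not tested.

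Partners and effectors of these pathways outside the rule were read from lists of 33 and 67 genes. Of the co-receptors and extracellular partners, 31 were on the array and 24 tested; 0 were past the threshold in either direction by limma, 2 were higher and 0 lower at an unadjusted p under 0.05, where 5.59% of all tested genes were higher and 5.78% lower, and the median difference was −0.03. NRCAM, an adhesion molecule that in mammals joins neuropilin in semaphorin receptors, had 268, 237 and 31.8 in cancer and 9.08, 10.1 and 0.917 in normal ovaries, none of which exceeded background. The geometric mean of its tumour signals was 3.16-fold that of the background limits of the normal arrays. The tumour of hen LB11 was below its own limit and is part of that mean, so the value is no lower bound. The fit gave limma adjusted p = 0.191, and NRCAM passed the filter only through its tumour signals. HHIP, a binding protein of hedgehog ligands, had 771, 207 and 110 in cancer and 60.5, 66.8 and 109 in normal ovaries, with hen 4 far above the rest (difference 1.60, SE 0.59, limma adjusted p = 0.395). CHL1, an adhesion molecule, overlapped between groups (difference 0.63, SE 0.31, limma adjusted p = 0.552). KDR, the main VEGF receptor and also an endothelial marker here, had 88.5, 138 and 108 in cancer and 165, 178 and 169 in normal ovaries (difference −0.57, SE 0.26, limma adjusted p = 0.511). Of the intracellular transducers, 56 were on the array and 51 tested; 0 were past the threshold by limma, 3 were higher and 6 lower at an unadjusted p under 0.05, beside the same 5.59% and 5.78% of all tested genes, and the median was −0.01.

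The collapsin response mediators, which carry semaphorin signals to the cytoskeleton, had differences of both signs. DPYSL4 had 301, 570 and 499 in cancer and 215, 165 and 228 in normal ovaries (difference 1.08, SE 0.28, limma adjusted p = 0.234). CRMP1 had 494, 669 and 705 in cancer and 1707, 767 and 1263 in normal ovaries (difference −0.92, SE 0.30, limma adjusted p = 0.329). SRGAP1, which links ROBO receptors to small GTPases, had 829, 997 and 752 in cancer and 1598, 1138 and 1533 in normal ovaries (difference −0.71, SE 0.21, limma adjusted p = 0.28). ABLIM1, an actin-binding protein placed downstream of netrin signals in worms, had 1779, 1810 and 1966 in cancer and 4503, 2459 and 3351 in normal ovaries (difference −0.85, SE 0.23, limma adjusted p = 0.24). Its other tested probe sets disagreed: only 3 of 5 had the same sign. None of these 4 had overlapping groups, and none was past the threshold. They were named for the smallest p of their list, which favours groups without overlap. Of the 56 transducers on the array, 3 were higher and 4 lower without overlap, beside 7.73% and 8.4% of all genes.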

How the data were processed

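For every probe set and array the authors deposited a linear signal intensity, computed with GCOS according to the submitters' processing notes, which give neither version nor settings here. Signals were compared as log2(signal + 16) with limma 3.58.1 in R 4.3.3 (lmFit, eBayes with trend, two-sided, Benjamini-Hochberg over 23063 probe sets, threshold 0.05), a shifted scale that understates changes of dim genes. Probe sets needed a mean signal at or above the 40th percentile (66.9); 96 control probe sets were left out. The background limit is the 95th percentile of 59 control probe sets, and was chosen after their values were seen. SE is limma's moderated SE. Symbols came from the platform's annotation, which gave 27178 probe sets 1 symbol, 177 several and 11180 none. Gene IDs of 60 of the 62 members were in a RefSeq table (GRCg7b), used for names and gene order only. In the lists, KRT19, NCK2 and RRAS2 matched KRT24, NCK1 and RRAS through synonyms.

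The members and lists were chosen with earlier results of these data known. Genes given with values follow a rule: past the threshold, tested without overlap, the 8 brightest, the ends of each role group, and up to 4 per other list by p. EFNB2, SEMA3E, SEMA3G, EPHA7, NTN1, EPHB1, EPHB3, PLXNA2, PLXNB2, SLIT1, UNC5D, SEMA3C, SEMA3DL and SEMA3F were added after their values were seen. The limma step was tested on simulated data. Figures were drawn with Python 3.11.15 and matplotlib 3.10.9. Alternatives varied the pseudocount, filter, scaling, fit, probe set rule and hens used.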

Additional observations from a re-analysis of the deposited data

How the results depend on the processing

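In the main limma fit, 4 of the 50 tested guidance genes were higher in cancer at an unadjusted p under 0.05. That is 8%, beside 5.59% of all tested genes, and 1 of the 4, NTNG2, passed the filter only through its tumour signals. Past the adjusted threshold, the count of guidance genes higher in cancer was 0 in all settings tried with limma. The count lower was 1 (PLXNC1), and 0 with eBayes without a trend, in the hens with the prefix LB alone, with a gene's probe sets averaged, without the filter and with the prefix as a block; leaving out 1 hen gave 0 to 1. Over all probe sets, the 54 higher became 87 at a threshold of 0.1, 35 without a trend, 21 with only LB hens and 23 to 163 with 1 hen left out, 163 being without the tumour of hen LB11. The 10 lower became 21 with array weights, 3 without a trend, 6 without the filter, 1 with only LB hens, 24 at 0.1 and 0 to 25 with 1 hen left out, 25 without the tumour of hen 4 and 0 without normal hen LB22. Counts of guidance genes without overlap, an alternative set chosen after seeing the data, were 5 higher and 7 lower, 14 and 11 in the LB hens alone, and 5 to 12 higher and 7 to 15 lower with 1 hen left out, where fewer hens overlap less often by construction; as shares these were 8.06% to 19.4% higher and 11.3% to 24.2% lower, beside 10.2% to 15.6% and 11.3% to 15.1% of all genes.

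Of 549 values of the 31 named members under 18 alternatives, 505 kept sign and side of the threshold, 9 (all PLXNC1) lost the call, and 35, in 13 members, changed sign; the cause was not tested. With array weights NTNG1 was 0.037, PLXNA4 0.057, UNC50 0.019 and UNC5C 0.13. In the LB hens alone NTNG1 was 0.14, ROBO2 0.18, SEMA3D −0.17, SLITRK6 0.68 and UNC50 0.13. With the mean over probe sets NTNG1 was 0.17 and UNC5C 0.023, and with quantile normalization UNC50 was 0.0068. With 1 hen left out, the range was −0.18 to 0.013 for EFNA2, −0.49 to 0.026 for EPHA5, −0.34 to 0.24 for NTNG1, −0.39 to 0.084 for PLXNA4, −0.052 to 0.34 for ROBO1, −0.33 to 0.093 for ROBO2, −0.070 to 0.57 for SEMA3D, −0.11 to 0.74 for SEMA4G, −0.16 to 0.035 for SEMA5A, −0.26 to 0.32 for SLITRK4, −1.20 to 0.67 for SLITRK6, −0.075 to 0.11 for UNC50 and −0.22 to 0.28 for UNC5C. No paired analysis was possible because the groups share no replicate numbers. The 12 untested genes were below the filter on dim probe sets, and some of them, such as EPHA2 and SLITRK1, exceeded the background limit on all 6 arrays.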
